A study of Mus musculus with 39 samples.

Results

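The 7 genes Mrc1, Cd163, Lyve1, Retnla, Folr2, Timd4 and Clec10a, which mark resident, alternatively activated macrophages, were followed across 39 arrays of mouse subcutaneous adipose tissue. Members were picked by name, with earlier results of these data known, and all probes bearing those names were taken. The 7 genes came from 29411 gene names on the array and were covered by 9 of 40628 probes. Clec10a is annotated there under its older name Mgl1, and a second Lyve1 probe under Xlkd1. The level of a gene is the log2 processed intensity of its probe minus the log2 75th percentile of its array, so that 0 is the 75th percentile and each unit is a doubling. Levels of different genes come from different probes and are not set against each other. General macrophage content was read from Cd68, a lysosomal membrane glycoprotein, and Emr1, an adhesion receptor used to mark mouse macrophages; the mean of both is called the macrophage level.

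Tissue macrophages that are self-maintaining, or that have been exposed to interleukin-4 and interleukin-13, carry scavenger and lectin receptors that take up glycoproteins, haemoglobin complexes, hyaluronan and dying cells. The interleukins act through a shared receptor chain and the transcription factor STAT6, and the resulting state is termed alternative activation. In lean adipose tissue such cells lie along vessels and between adipocytes, and in obesity they are joined by recruited, lipid-laden macrophages. In bulk tissue, fewer cells of a type and less RNA per cell cannot be told apart.

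The mice were C57BL/6J and entered the diets after weaning at 3 to 4 weeks of age. LFC received a low-fat diet with 10% of calories from fat (10 arrays: Day 6, Day 10 and Day 14, Week 0, and then every 3 weeks to Week 18), and HFC a high-fat, high-sucrose diet with 60% (11 arrays: the same time points and Day 1). HF5, HF20 and HF75 received the high-fat diet with KAL-1, a botanical preparation, at 5, 20 and 75 µg (6 arrays each, Week 3 to Week 18). Each group had 30 animals, each array stands for 1 diet at 1 time point, and how many animals lie behind an array is not given, so p-values measure the spread of single arrays between time points. By the study's methods weeks were counted from Day 14, so that Day 14 and Week 0 fell at the same time. Day 6 to Week 0 are called early and Week 3 to Week 18 late.

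The 75th percentile intensity ranged from 107.9 to 1285.3 over the arrays, and 49.3% to 87.8% of spots were well above background. Mrc1, Cd163, Lyve1, Retnla, Folr2 and Clec10a were well above background on all 39 arrays and Timd4 on 36. All 6 adipocyte markers listed were well above background on every array. Markers of other tissues stood apart on a few arrays. The mean level of the skeletal muscle list was high on HF75 Week 3 (7.35), HFC Day 1 (6.20), HF5 Week 12 (5.90), HFC Day 6 (5.20) and LFC Day 6 (4.43), the liver list on HFC Day 14 (1.13) and the lymphocyte list on LFC Week 3 (2.27). In the deposited table of ratios, the HF5 and HF20 columns of Week 12 correlated with each other's array files (r = 0.999) and less with their own (r = 0.663 and 0.666), so the labels of that pair differ between the 2 deposits, and those of the array files were used. The title of HF5 Week 12 has a B where those of HF20, HF75 and HFC at that week have an S. Its source is labelled subcutaneous adipose, and the meaning of the letters is not given. HF20 Week 15 had the largest share of spots well above background and 4936 spots marked as outliers, against 474 on the next array. Beside most comparisons below stand values without some of these arrays or their time points.

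**Figure D1:**
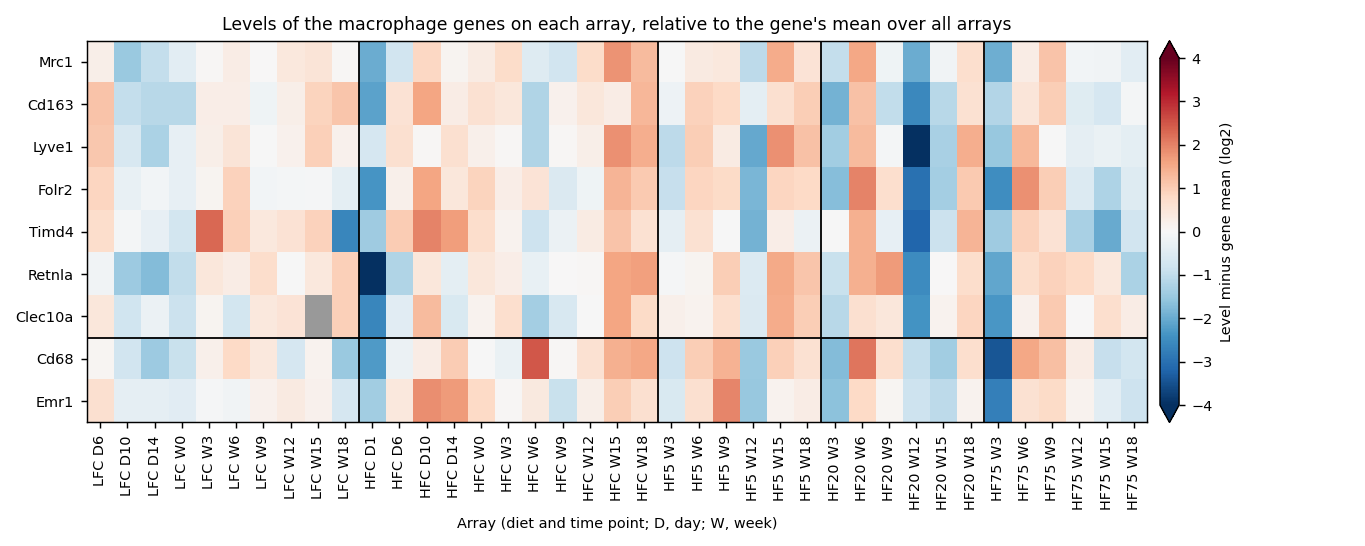
Level of each gene on each of the 39 arrays minus its mean over all arrays (colour, log2), with arrays in columns by diet and time point and the grey cell an array whose Clec10a spot was left out as an outlier. HF20 Week 12 lies below the mean for all 7 genes, most of all for Lyve1, and less far below it for Cd68 and Emr1; HFC Week 6 is low for Cd163, Lyve1 and Clec10a while Cd68 is high.

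Mrc1 encodes the mannose receptor, an endocytic lectin for mannosylated glycoproteins. Its level in LFC was 1.49 at Day 6, −0.22 at Day 10, 0.31 at Day 14 and 0.84 at Week 0, and in HFC 0.49, 2.07, 1.36 and 1.58 at the same times. HFC was below LFC at Day 6 and above it at the other 3 early times, and the groups overlapped. From Week 3 to Week 18, LFC lay between 1.27 and 1.77 (median 1.44), HFC between 0.51 and 3.05 (median 1.99), HF5 between 0.20 and 2.75 (median 1.66), HF20 between −0.73 and 2.80 (median 1.1) and HF75 between −0.68 and 2.39 (median 1.12). The late means ran from HFC (1.80 ± 0.99, SD, n = 6) through HF5 (1.55 ± 0.83), LFC (1.48 ± 0.22) and HF20 (1.09 ± 1.23) to HF75 (1.05 ± 1.01), and each step in that order was smaller than the SD of at least one of its groups. HFC Week 15 and HF20 Week 6 had the highest levels, and HF20 Week 12, HFC Day 1 and HF75 Week 3 the lowest.

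Clec10a encodes a galactose-type lectin of macrophages and dendritic cells. In LFC it stood at 4.36, 3.13, 3.68 and 3.06 from Day 6 to Week 0, and in HFC at 3.45, 5.18, 3.32 and 4.05. HFC was above LFC at Day 10 and Week 0 only. The late means were 4.39 ± 0.73 in HF5, 4.17 ± 0.63 in LFC (n = 5, since the Week 15 spot was an outlier), 4.09 ± 1.06 in HFC, 3.89 ± 1.19 in HF75 and 3.68 ± 1.27 in HF20, and no step exceeded these SDs. The lowest levels of Clec10a were 1.32 at HFC Day 1, 1.52 at HF20 Week 12 and 1.59 at HF75 Week 3, against a median of 4.07 over 38 arrays.

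Cd163 encodes the scavenger receptor for haptoglobin and haemoglobin complexes. In LFC its level was 2.31 at Day 6 and then 0.21, 0.03 and 0.03, whereas HFC held 1.74, 2.73, 1.44 and 1.75. From Day 10 to Week 0 the 3 HFC values lay above the 3 LFC values. The late means were 1.61 ± 0.59 in HF5, 1.58 ± 0.48 in LFC, 1.40 ± 0.82 in HFC, 0.99 ± 0.79 in HF75 and 0.36 ± 1.45 in HF20. The HF20 values were −0.75 at Week 3, 2.34 at Week 6, 0.16 at Week 9, −1.42 at Week 12, 0.05 at Week 15 and 1.77 at Week 18. Of them 4 lay below every late LFC value and 2 lay among or above those values, so the groups overlapped.

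Lyve1 encodes a hyaluronan receptor of resident macrophages and of lymphatic endothelium. In LFC the level was 1.08, −0.64, −1.27 and −0.31 from Day 6 to Week 0, and in HFC 0.64, 0.05, 0.64 and 0.22. The late means were 0.41 ± 1.09 in HFC, 0.35 ± 0.35 in LFC, 0.21 ± 1.47 in HF5, −0.20 ± 0.90 in HF75 and −0.66 ± 2.03 in HF20. The widest range was that of HF20, from −3.97 at Week 12 to 1.47 at Week 18. The second Lyve1 probe, listed as Xlkd1, followed the first over the 39 arrays (r = 0.85) and was also lowest on HF20 Week 12 (−5.26). It was well above background on 37 arrays, and its differences between diets, which departed from those of the first, are given in several comparisons below. The lymphatic transcription factor Prox1 was well above background on 10 arrays and the other 5 genes of the lymphatic list on 31 to 39 (Pdpn 31, Flt4 34, Mmrn1 37, Ccl21c 38, Reln 39), and the mean level of the lymphatic list correlated with Lyve1 at r = 0.42 over all arrays, as a description; the part of lymphatic vessels in the Lyve1 levels was not tested.

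Timd4 encodes Tim-4, a phosphatidylserine receptor for apoptotic cells found on long-lived resident macrophages. In LFC it stood at −2.08, −2.87, −3.13 and −3.52 from Day 6 to Week 0, and in HFC at −1.78, −0.79, −1.13 and −2.09. HFC was above LFC at all 4 early times, with overlap only between LFC Day 6 and HFC Week 0. The late means were −2.36 ± 1.62 in LFC, −2.60 ± 0.68 in HFC, −3.06 ± 0.87 in HF5, −3.06 ± 1.69 in HF20 and −3.46 ± 1.17 in HF75. The highest level of all arrays was −0.51 at LFC Week 3, the array on which the lymphocyte list was highest, and the lowest were −5.95 at HF20 Week 12 and −5.39 at LFC Week 18. On those 2 arrays and on HF75 Week 3 the probe was not well above background, so 5 of the 6 late arrays measured it in each of LFC, HF20 and HF75. At HFC Day 14, where liver transcripts stood out, Marco (4.82) and Vsig4 (−0.51), which liver macrophages also carry, were at their highest; the part of liver tissue in the Timd4 level there was not tested.

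Folr2 encodes folate receptor beta, a folate-binding protein of tissue macrophages. Its probe is shown because Folr2 followed the macrophage level most closely of the 7 genes. It reads, 5′ to 3′ and with a single reading frame free of stop codons:
Folr2 probe: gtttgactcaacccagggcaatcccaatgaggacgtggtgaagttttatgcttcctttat
In LFC the level was 2.62, 1.48, 1.67 and 1.43 from Day 6 to Week 0, and in HFC 1.97, 3.33, 2.22 and 2.65. HFC was higher at 3 of these 4 times. The late means were 2.18 ± 0.74 in HFC, 1.86 ± 1.17 in HF5, 1.84 ± 0.44 in LFC, 1.44 ± 1.54 in HF75 and 1.37 ± 1.91 in HF20. The HF20 values ran from −1.21 at Week 12 to 3.75 at Week 6 and the HF75 values from −0.71 at Week 3 to 3.58 at Week 6, so both doses held arrays above and below all LFC arrays.

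Retnla encodes the secreted resistin-like molecule alpha, also named Fizz1 and Relm-alpha, a product induced by interleukin-4. Its promoter is shown because STAT6 binding is the textbook route to this gene. The 250 bases before the start in the RefSeq annotation of GRCm38.p6, chr16:48842359-48842608 on the plus strand, read as follows, with motif matches in capitals:
Retnla promoter: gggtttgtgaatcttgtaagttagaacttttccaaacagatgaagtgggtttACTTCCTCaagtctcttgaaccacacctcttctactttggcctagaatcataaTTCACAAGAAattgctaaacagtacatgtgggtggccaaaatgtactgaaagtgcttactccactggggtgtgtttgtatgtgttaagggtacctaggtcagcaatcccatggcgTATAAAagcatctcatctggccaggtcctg
The capitals mark a match to the STAT6-type motif, TTC and GAA with 4 bases of any kind between (145 to 136 bases before the start), to the PU.1-type motif GAGGAAGT on the minus strand (198 to 191) and to a TATA box, TATAAA (30 to 25). Both strands were searched and the 3 matches do not overlap. These letters occurred in 5.85%, 2.44% and 12.4% of 32851 promoters of the same length, and each in 1 of the 6 promoters found for the members (Mrc1, Cd163, Timd4, Retnla and a pair for Folr2). A match describes the letters only. No binding was measured.

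In LFC the Retnla level was 4.95 at Day 6 and 3.62, 3.36 and 4.10 thereafter, and in HFC 3.89, 5.53, 4.70 and 5.54. By Week 3 to Week 18 LFC lay between 5.06 and 6.04 (median 5.52) and HFC between 4.79 and 6.72 (median 5.24). All 6 late LFC arrays were above all 4 early ones. The late means were 5.63 ± 0.84 in HFC, 5.62 ± 0.80 in HF5, 5.55 ± 0.34 in LFC, 5.16 ± 1.59 in HF20 and 5.01 ± 1.27 in HF75, with steps within their spread. The lowest level of all arrays was 1.06 at HFC Day 1, followed by 2.56 at HF20 Week 12 and 3.01 at HF75 Week 3. Retnla has a second probe that shares 50 bases with the first, and both moved together (r = 0.942).

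**Figure D2:**
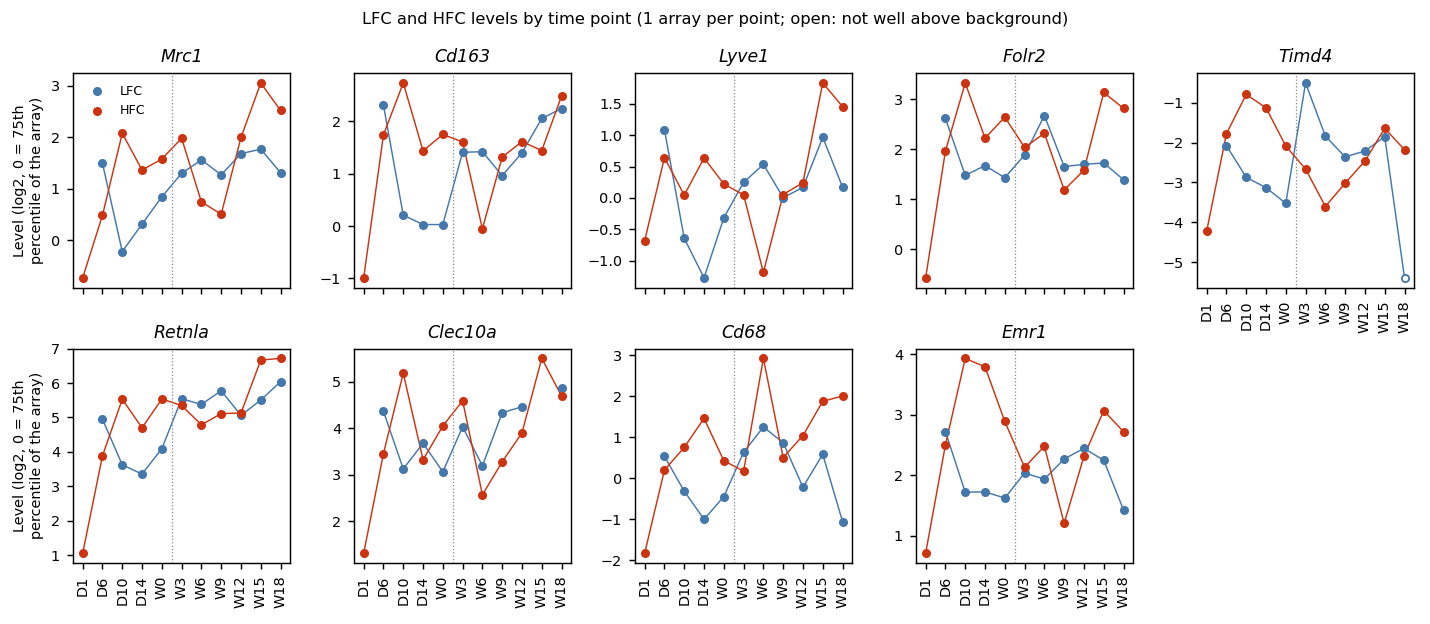
Level (log2, relative to the 75th percentile of the array) of the 7 genes and of Cd68 and Emr1 in LFC (blue) and HFC (red) at each time point, 1 array a point, with open points not well above background and a dotted line between early and late. HFC lies above LFC from Day 10 to Week 0 for Mrc1, Cd163, Lyve1, Retnla, Folr2 and Timd4, and the lines cross afterwards.

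The first comparison asked whether the high-fat diet changed these genes over the 10 time points that have both diets. In the limma fit with the time point as a block, no member passed an adjusted p of 0.05, and neither did any other gene (0 of 19876, 0.0%). At an unadjusted p under 0.05, 1165 genes (5.86%) passed and 0 of the 7 members did. The differences HFC minus LFC were 0.50 ± 0.32 (SE) for Mrc1, 0.50 ± 0.28 for Folr2, 0.44 ± 0.49 for Timd4, 0.41 ± 0.31 for Retnla, 0.40 ± 0.35 for Cd163, 0.30 ± 0.30 for Lyve1 and −0.01 ± 0.32 for Clec10a. The second Lyve1 probe differed by 0.05 ± 0.28. The median over the 7 members was 0.41, beside −0.04 over all genes tested. Cd68 differed by 1.05 ± 0.35 (p = 0.011, adjusted p = 0.80) and Emr1 by 0.69 ± 0.31 (adjusted p = 0.80). Skeletal muscle transcripts stood out on both Day 6 arrays, where HFC minus LFC was −1.01 for Mrc1 and −1.06 for Retnla. Without Day 6 the fitted differences were 0.66 for Mrc1, 0.63 for Folr2 (p = 0.049, adjusted p = 0.77) and 0.57 for Retnla. Without Day 10 they were 0.30 for Mrc1, 0.16 for Cd163, 0.24 for Retnla and −0.27 for Clec10a. Without Day 14, whose HFC array held liver transcripts, Lyve1 was at 0.13 and Timd4 at 0.27. Timd4 was at 0.73 without Week 3, whose LFC array held lymphocyte transcripts, and at 0.13 without Week 18, where its LFC probe was not well above background. Leaving out each time point in turn gave 0.30 to 0.66 for Mrc1, 0.35 to 0.63 for Folr2, 0.24 to 0.57 for Retnla, 0.16 to 0.61 for Cd163, 0.13 to 0.53 for Lyve1, 0.13 to 0.73 for Timd4 and −0.27 to 0.12 for Clec10a.

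The differences were not alike over time. At Day 10 HFC exceeded LFC by 2.29 for Mrc1, 2.53 for Cd163, 2.08 for Timd4, 2.05 for Clec10a, 1.90 for Retnla, 1.85 for Folr2 and 0.69 for Lyve1. At Week 6 the difference was −0.81 for Mrc1, −1.47 for Cd163, −1.72 for Lyve1 and −1.77 for Timd4, while for Cd68 it was 1.67. By Week 18 the differences for Mrc1, Lyve1 and Folr2 were again positive, at 1.21, 1.28 and 1.43. Timd4 was then at least 5.98-fold higher in HFC (2.58 on the log2 scale), a bound taken against the lowest signal well above background on the LFC array, which lay above the probe's own. Over Week 3 to Week 18 alone, no member passed (0 of 21092 genes, 0.0%; 1066 genes or 5.05% at an unadjusted p under 0.05, no member among them), the differences of the 7 genes lay between −0.26 and 0.34 with a median of 0.06, Cd68 differed by 1.08 ± 0.55 (p = 0.063) and Emr1 by 0.26 ± 0.48 (p = 0.59). Timd4 differed by −0.24 ± 0.70, by 0.15 without Week 3 and by −0.93 without Week 18. When each week was left out in turn, the other 6 genes lay between −0.40 and 0.54.

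A second comparison took the late difference between HFC and LFC minus the early one. It was negative for all 7 members, with a median of −0.81 (Mrc1 was at 0.058 without Day 10), and no gene passed the adjusted threshold (0 of 19876, 0.0%). At an unadjusted p under 0.05, 375 genes (1.89%) and 1 member passed, Cd163 with −1.45 ± 0.61 (p = 0.036, adjusted p = 1.00). Without Day 10 the Cd163 value was −1.04 (p = 0.13), and without Day 14, whose HFC array held liver transcripts, −1.41 (p = 0.073). Without Day 6, whose arrays held muscle transcripts, Cd163 had −2.07 (p = 0.0025) and Retnla −1.49 (p = 0.013). Timd4 followed with −1.69 ± 0.92, Retnla with −0.83 ± 0.61, Clec10a with −0.81 ± 0.63, Lyve1 with −0.61 ± 0.62, Mrc1 with −0.45 ± 0.67 and Folr2 with −0.40 ± 0.59. Without Week 18 Timd4 had −2.38 (p = 0.0026). These p-values without a time point are unadjusted, and no member passed the adjusted threshold when any time point was left out. Leaving out each time point gave −1.26 to −0.28 for Clec10a, −0.98 to −0.20 for Lyve1 and −0.86 to −0.029 for Folr2, the values nearest 0 without Day 10 for Clec10a and Folr2 and without Day 14 for Lyve1. The same value was 0.06 ± 0.75 for Cd68 and −1.07 ± 0.59 for Emr1.

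Late time points were compared with early ones over both diets. The early and late arrays shared no scan day and the animals were older at the late times, so time on the diet, age and scan day cannot be told apart. Over all, 1 gene of 19876 (0.00503%) passed the adjusted threshold, and it was no member. At an unadjusted p under 0.05, 1692 genes (8.51%) passed, Retnla among them: its mean was 5.59 late and 4.46 early, a difference of 1.13 ± 0.37 (p = 0.0068, adjusted p = 0.41), and 0.97 to 1.25 when each time point was left out. Mrc1 differed by 0.65 ± 0.38, Clec10a by 0.38 ± 0.42, Lyve1 by 0.33 ± 0.40, Cd163 by 0.21 ± 0.43, Folr2 by −0.16 ± 0.33 and Timd4 by −0.30 ± 0.58. Without Day 6, whose arrays held muscle transcripts, Cd163 was at 0.46 and Lyve1 at 0.60, and without Day 14 they were at 0.031 and 0.21. Timd4 was at −0.48 without Week 3 and at −0.042 without Week 18. Of 16 other products of alternative activation, 6 were higher and 2 lower late at an unadjusted p under 0.05, where 3.81% of all genes were higher and 4.7% lower, and none passed the adjusted threshold. Their median was 0.44, beside −0.01 over all genes. The eotaxin Ccl24 (1.55 ± 0.44, p = 0.0023) and the lectin receptor Cd209d (1.56 ± 0.46, p = 0.0030) were among the higher ones, and the lower ones were its relatives Cd209g (−1.06 ± 0.45, p = 0.028) and Cd209f (−0.93 ± 0.42, p = 0.039). Without Day 6 the count was 6 higher and 1 lower, and without Day 14 it was 4 and 2. Over Week 3 to Week 18 in all 5 diets, the slope per week was 0.09 ± 0.04 for Clec10a (p = 0.055, adjusted p = 0.81) and between −0.05 and 0.06 for the other 6. Without the HF75 Week 3 and HF5 Week 12 arrays, which held muscle transcripts, it was 0.065 for Clec10a (p = 0.12) and −0.064 to 0.056 for the others; in the fit of all arrays 1 gene (0.00474%) passed the adjusted threshold and 5.53% an unadjusted p under 0.05.

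**Figure D3:**
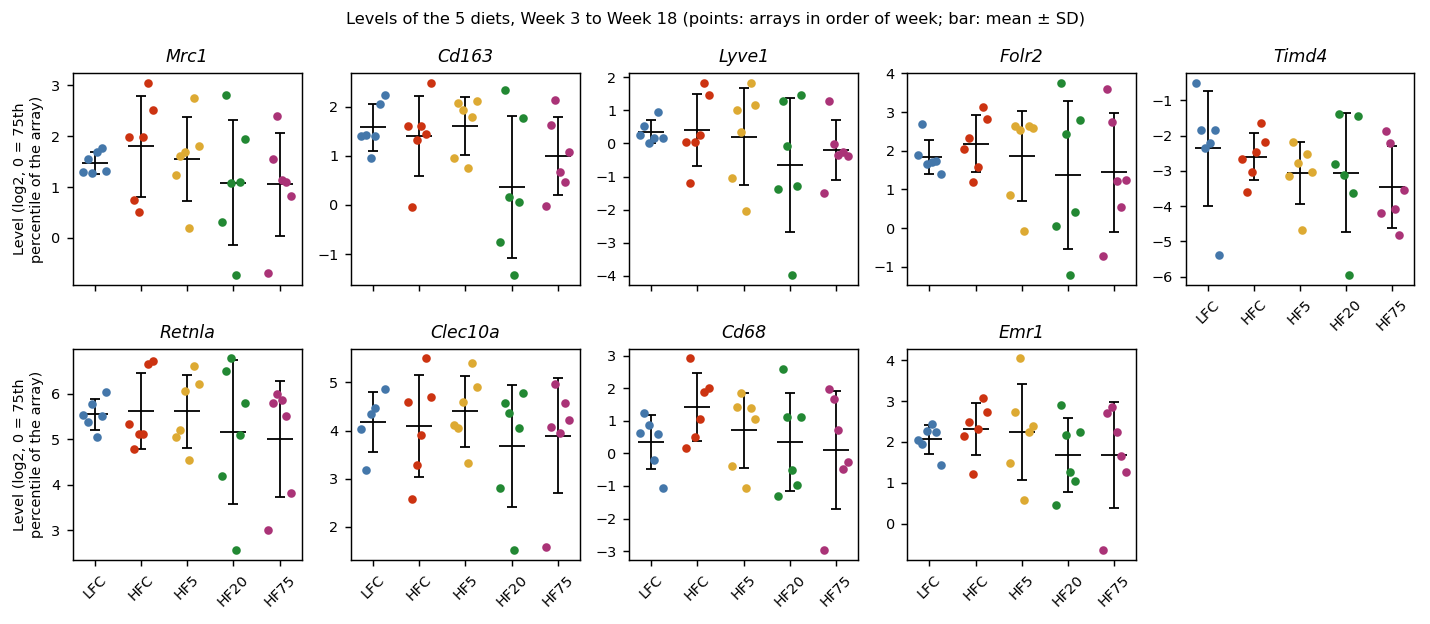
Level (log2, relative to the 75th percentile of the array) of the 7 genes and of Cd68 and Emr1 in the 5 diets from Week 3 to Week 18, 1 array a point in order of week, with the mean and SD of 6 arrays as bars (5 for Clec10a in LFC). All groups overlap; LFC has the smallest SD for Mrc1, Cd163, Lyve1, Retnla, Folr2 and Clec10a, and the lowest HF20 point of Cd163, Lyve1 and Clec10a is Week 12.

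The KAL-1 comparisons asked whether KAL-1 changed these genes on the high-fat diet, each dose against HFC at the same 6 weeks; all doses share the HFC arrays. No gene passed the adjusted threshold in any of them (0 of 21092, 0.0%, each). With the doses together, the differences from HFC were −0.62 ± 0.51 for Lyve1, −0.62 ± 0.46 for Folr2, −0.59 ± 0.57 for Timd4, −0.57 ± 0.41 for Mrc1, −0.42 ± 0.37 for Cd163, −0.36 ± 0.44 for Retnla and −0.10 ± 0.40 for Clec10a. The second Lyve1 probe differed by only −0.05 ± 0.45. No member was among the 951 genes (4.51%) with an unadjusted p under 0.05, and the member median was −0.57 beside 0.02 over all genes. These values moved with single weeks. Without Week 6, whose HFC array is described below, Lyve1 was at −1.22 (p = 0.024), Mrc1 at −0.93 (p = 0.039) and Cd163 at −0.91 (p = 0.0093), each with an adjusted p of 1.00. Without Week 9 Mrc1 was at −0.92 (p = 0.043) and Folr2 at −1.03. Without Week 12 Lyve1 was at −0.27, Mrc1 at −0.32, Timd4 at −0.22 and Cd163 at −0.18. When each week was left out, Retnla ran from −0.67 to −0.15 and Clec10a from −0.45 (Week 6) to 0.23 (Week 3). Without the HF75 Week 3 and HF5 Week 12 arrays Lyve1 was at −0.50 and Mrc1 at −0.41, and without HF20 Week 15 they were at −0.52 for both. Cd68 differed by −1.03 ± 0.45 (p = 0.032, adjusted p = 1.00) and Emr1 by −0.46 ± 0.39. Against LFC the doses together gave a median of −0.36 over the members, Timd4 at −0.83 ± 0.57 and Cd163 at −0.60 ± 0.37 among them, with no member among the 733 genes (3.48%) at an unadjusted p under 0.05. Timd4 was at −0.42 there without Week 3 and at −1.54 without Week 18 (p = 0.0080), the weeks of the LFC arrays that stood apart for it. Cd163 was at −0.83 without Week 6 (p = 0.016) and at −0.44 without Week 12. The p-values without a week are unadjusted, and no member passed the adjusted threshold when any week was left out.

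By dose, HF5 minus HFC had a member median of −0.20. Its values ran from −0.46 ± 0.70 for Timd4 to 0.31 ± 0.49 for Clec10a, none among the 287 genes (1.36%) with an unadjusted p under 0.05. When each week was left out, Timd4 ran from −0.84 to −0.11 and Clec10a from 0.073 to 0.48. Without Week 12, Mrc1 was at 0.06 and Lyve1 at 0.22. With the HF5 and HF20 labels of Week 12 exchanged, HF5 minus HFC was −0.16 for Cd163 (0.21 as labelled), −0.52 for Lyve1, −0.40 for Mrc1, −0.34 for Retnla and 0.0055 for Clec10a. HF20 minus HFC had a median of −0.71. Cd163 was the member among the 905 genes (4.29%) at an unadjusted p under 0.05, with −1.04 ± 0.46 (p = 0.032, adjusted p = 1.00). Lyve1 differed by −1.07 ± 0.62 (p = 0.10), but its second probe by −0.21 ± 0.56. Without Week 12 the Cd163 value was −0.65 and the Lyve1 value −0.44. With these doses exchanged at Week 12 the Cd163 value was −0.68 (p = 0.20). Without Week 6 Cd163 was at −1.73 (p = 0.0003), Lyve1 at −1.78 (p = 0.0092) and Mrc1 at −1.26 (p = 0.023). These p-values are unadjusted, and in no dose comparison did a member pass the adjusted threshold when any week was left out. Without the HF20 Week 15 array Cd163 was at −0.98 and Lyve1 at −0.76. HF75 minus HFC had a median of −0.62, with Timd4 at −0.86 ± 0.70, Mrc1 and Folr2 at −0.74 ± 0.50 and −0.74 ± 0.57, and no member among 5.02% of genes. When each week was left out, Folr2 ran from −1.20 to −0.34 and Timd4 from −1.38 to −0.40. Without the HF75 Week 3 and HF5 Week 12 arrays, which held muscle transcripts, Mrc1 was at −0.46 and Timd4 at −0.62. In the same comparison Mrc1 was at −1.27 without Week 9 (p = 0.025) and Cd163 at −0.83 without Week 6 (p = 0.045). Along the order HFC, HF5, HF20, HF75 the slope per step was between −0.27 and −0.13 for the 7 genes, with no member among 5.05% of genes, and that of Cd68 was −0.43 ± 0.17 (p = 0.022, adjusted p = 0.89) and that of Emr1 −0.25 ± 0.15 (p = 0.11). The slope of the second Lyve1 probe was −0.04 ± 0.18. With the Week 12 labels exchanged the 7 slopes lay between −0.24 and −0.069, and without the HF75 Week 3 and HF5 Week 12 arrays between −0.26 and −0.015. Without Week 6 Cd163 had −0.40 (p = 0.0037), Lyve1 −0.48 (p = 0.024), Mrc1 −0.40 (p = 0.025) and Folr2 −0.42 (p = 0.041), each with an adjusted p of 0.84.

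**Figure D4:**
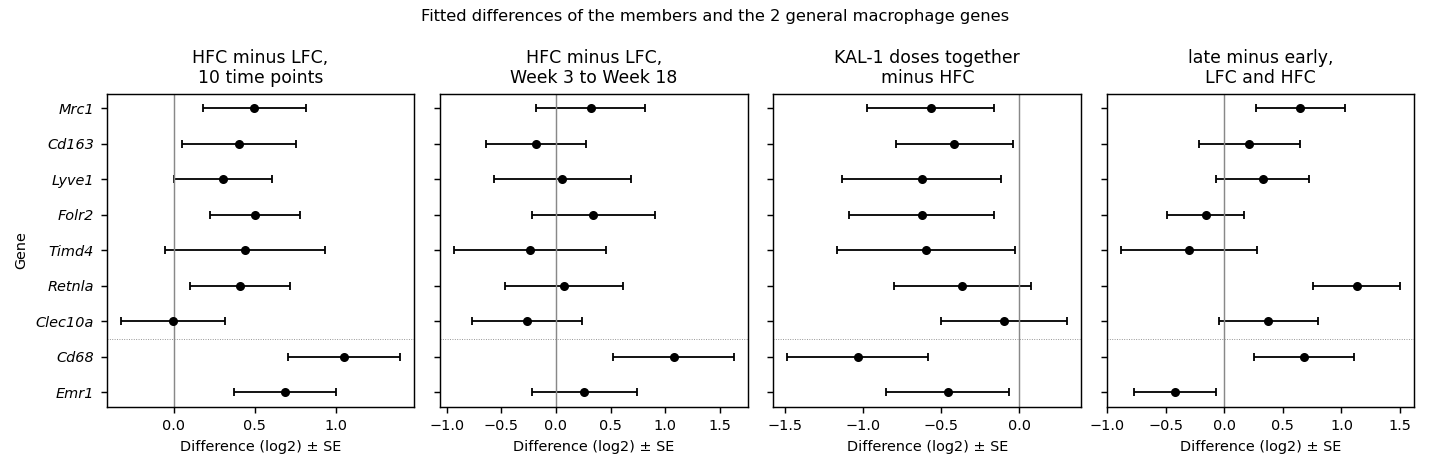
Fitted log2 difference (points) with its SE (bars) of the 7 genes and of Cd68 and Emr1 in 4 comparisons, from left to right HFC minus LFC at 10 time points, the same at Week 3 to Week 18, the KAL-1 doses together minus HFC, and late minus early in LFC and HFC. No value passed an adjusted p of 0.05; Timd4 has the widest SE of the 7 genes in each of the 4.

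Week 6 stood apart in these pairs. There HFC had Cd163 at −0.05, Lyve1 at −1.18, Timd4 at −3.60 and Clec10a at 2.57 while its Cd68 level, 2.92, was the highest of all 39 arrays. Relative to the macrophage level, HFC Week 6 was the lowest array for Mrc1 (−1.96), Cd163 (−2.75) and Clec10a (−0.13). At that week the doses exceeded HFC for all 7 genes: Cd163 by 2.13, 2.39 and 1.67 in HF5, HF20 and HF75, Lyve1 by 2.18, 2.47 and 2.48 and Timd4 by 1.43, 2.23 and 1.73. This rests on a single HFC array that all 3 pairs share. At Week 12 HF20 minus HFC was −2.72 for Mrc1, −3.04 for Cd163 and −4.22 for Lyve1, with the doubt over the Week 12 labels given above. Timd4, not well above background on that HF20 array, was at least 11.2-fold higher in HFC. Over the 18 pairs of a dose and HFC, the dose was higher in 9 for Clec10a, in 7 for Retnla and in 6 for each of the others, beside 3 for Cd68 and 6 for Emr1. For the second Lyve1 probe the dose was higher in 9.

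The members were then read against the macrophage level, which ranged from −1.81 (HF75 Week 3) to 2.95 (HF5 Week 9) with a median of 1.48. Over the 39 arrays, which share time points and are not fully independent, the correlation was tested by permutation and adjusted over 19178 genes. Folr2 had Pearson's r = 0.867 and Spearman's rho = 0.864, and Mrc1 had r = 0.747 and rho = 0.732 (permutation tests, adjusted p = 0.00034 for each r and 0.0005 for each rho). Retnla followed with r = 0.667 and rho = 0.644, Lyve1 with 0.642 and 0.71, Cd163 with 0.635 and 0.635, Timd4 with 0.630 and 0.643 and Clec10a with 0.573 and 0.484 over 38 arrays (permutation tests, adjusted p from 0.00034 to 0.0025 for r and from 0.0005 to 0.019 for rho). All 7 members passed in the positive direction, where 13.7% of all genes did, and the median r of all genes was −0.03. With each time point's mean removed, all 7 passed beside 7.28% of genes, Folr2 at r = 0.842, Mrc1 at 0.814 and Cd163, the lowest, at 0.611 (permutation test, adjusted p = 0.012). Without the 2 arrays farthest from the median, HF75 Week 3 and HFC Day 1, r was 0.832 for Folr2, 0.663 for Mrc1 and 0.384 for Clec10a, which no longer passed (adjusted p = 0.082), beside 9.54% of genes that did. Within single diets the median r over the 7 members was 0.59 in LFC, 0.63 in HFC, 0.77 in HF5, 0.73 in HF20 and 0.86 in HF75, and the median rho 0.48, 0.30, 0.54, 0.77 and 0.83, with each member above 0 in each diet. In HFC this rested on Day 1: without that array the median r was 0.31 and the median rho 0.12 over 10 arrays, with Cd163 at r = −0.10 and Folr2, the highest, at 0.684. The HF75 values include Week 3, the array farthest from the median macrophage level, and none was computed without it.

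**Figure D5:**
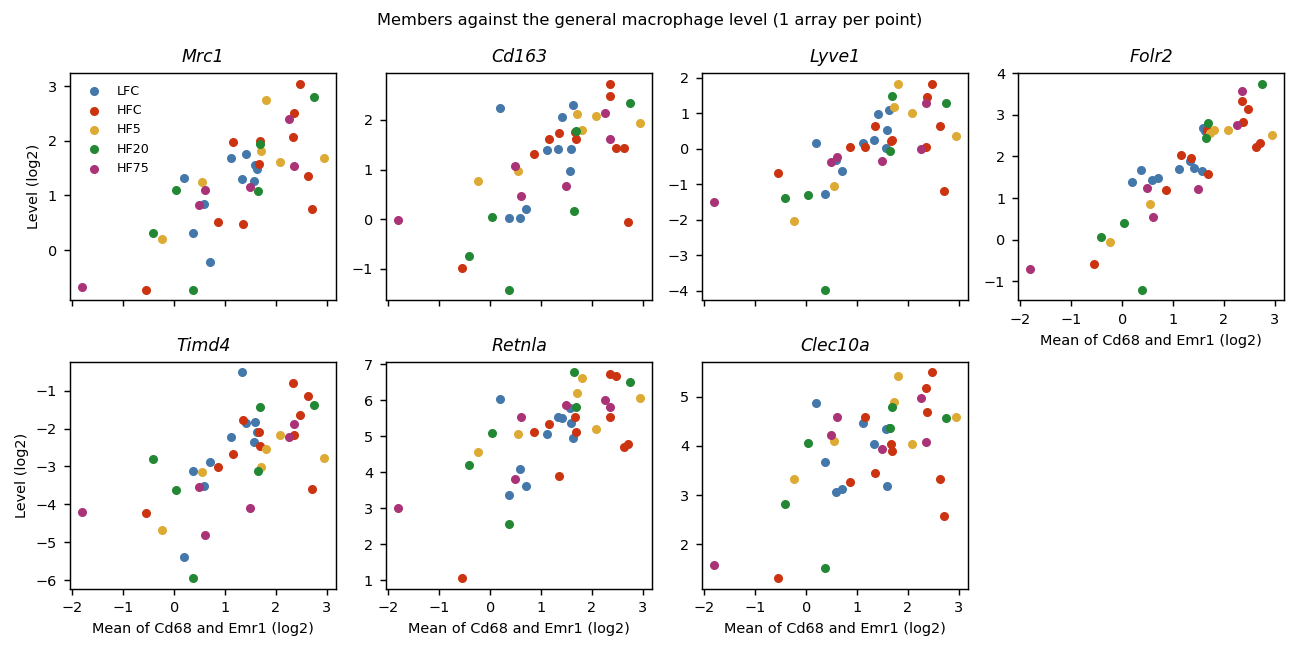
Level of each of the 7 genes (vertical, log2) against the mean level of Cd68 and Emr1 (horizontal, log2) on 39 arrays (38 for Clec10a), coloured by diet. Folr2 lies closest to a line (r = 0.867) and Clec10a is the most scattered (r = 0.573); HFC Week 6, at a macrophage level near the top, lies low for Cd163, Lyve1, Timd4 and Clec10a.

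Subtracting the macrophage level from each gene on each array gave the difference between diets relative to it. In HFC minus LFC these were −0.86 ± 0.43 for Clec10a (adjusted p = 0.11), −0.57 ± 0.37 for Lyve1, −0.47 ± 0.41 for Cd163, −0.46 ± 0.34 for Retnla, −0.43 ± 0.41 for Timd4, −0.37 ± 0.36 for Mrc1 and −0.37 ± 0.35 for Folr2. No member passed where 1897 of 19876 genes did (9.54%; 51.6% at an unadjusted p under 0.05, with no member among them), and the member median was −0.46 beside −0.91 over all genes, since the subtraction moves every gene by the same amount. Leaving out each time point gave −1.06 to −0.64 for Clec10a (p = 0.028, adjusted p = 0.065 without Week 3), and the other 6 genes lay between −0.71 and −0.16. The reference moved all of these values: with Emr1 alone they ran from −0.68 for Clec10a to −0.19 for Folr2, and with the mean of the 16 genes of the general macrophage list from −0.41 for Clec10a to 0.044 for Folr2. With Cd68 alone all 7 lay lower, among them Lyve1 at −0.75, Mrc1 at −0.56 and Folr2 at −0.55. For the doses together minus HFC, the relative values lay between 0.12 and 0.65 for the 7 genes. The second Lyve1 probe was at 0.70 ± 0.44 there, beside 0.12 for the first, and at −0.82 ± 0.40 in HFC minus LFC. No gene passed there (0 of 21092, 0.0%; 13.8% at an unadjusted p under 0.05, with no member among them), and the member median was 0.18 beside 0.76 over all genes. Their direction depended on the reference: with Emr1 alone Mrc1, Lyve1, Folr2 and Timd4 were negative (−0.17 to −0.11), and with the general macrophage list these 4 (−0.23 to −0.17) and Cd163 (−0.024), while with Cd68 alone all 7 were positive (0.41 to 0.93). Without Week 6 the values ran from −0.39 for Lyve1 to 0.38 for Clec10a, and without the HF75 Week 3 and HF5 Week 12 arrays from 0.018 to 0.58 for the same genes.

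Across arrays the 7 genes moved with each other: their 21 pairs had correlations from 0.42 to 0.87 with a median of 0.75, as a description over 39 arrays of shared tissue content. The genes most like each member, by r over the 39 arrays, were Pf4 (0.879), Fcgr2b (0.874) and Clec10a (0.868) for Mrc1, and F13a1 (0.835), Mrc1 (0.791) and C1qc (0.789) for Cd163. For Lyve1 they were Fcna (0.869), Xlkd1 (0.851) and Folr2 (0.812), and for Folr2 they were C1qa (0.935), Fcna (0.929) and C1qc (0.925), that is ficolin and complement C1q subunits. Retnla had Cd209d (0.920), Ccl24 (0.901) and Ear11 (0.886), and Clec10a had Cd209d (0.882), Mrc1 (0.868) and Cd209b (0.849). Timd4 had Pld4 (0.788), Tlr7 (0.783) and Fgd2 (0.779).

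Arrays were low or high together for these genes. HF20 Week 12 was among the 5 lowest arrays for all 7 genes, HFC Day 1 and HF75 Week 3 for 6 each, and HF5 Week 12 and HF20 Week 3 for 4 each. The skeletal muscle list was high on HFC Day 1, HF75 Week 3 and HF5 Week 12 and stood at −0.41 on HF20 Week 12, where the adipocyte list was at its highest (6.00). On the Day 6 arrays of LFC and HFC, where the muscle list was also high, 0 members were among the 5 lowest. HFC Week 15, HFC Week 18 and HF20 Week 6 were among the 5 highest arrays for 5 of the 7 genes, and on HFC Week 15 the adipocyte list was at its lowest (2.13). The part of muscle, adipocyte content or RNA amount in these levels was not tested.

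The other genes of the pathway were read from lists of ligands, receptors, regulators and products, none of which had a member past the adjusted threshold in HFC against LFC or in the doses together against HFC. In HFC against LFC, 1.96% of all genes were higher and 3.9% lower at an unadjusted p under 0.05. Of 6 ligands tested in HFC against LFC, 1 was higher and 1 lower at an unadjusted p under 0.05 (median 0.09): Il13, a ligand of the shared receptor, differed by −0.82 ± 0.22 (p = 0.0027, adjusted p = 0.80), and Il10 by 2.10 ± 0.82 (p = 0.026). None of the 5 receptors passed even unadjusted (median 0.22), Csf1r, the receptor for colony stimulating factor, standing at 0.62 ± 0.41 and Il4ra at −0.51 ± 0.35. Nor did any of the 7 regulators (median 0.18), with Stat6 at 0.25 ± 0.16 and Irf4 at 0.48 ± 0.44, or any of the 16 effectors (median −0.03), with the growth factor Igf1 at 0.51 ± 0.27 and Ccl24 at 0.56 ± 0.37. Of 16 further resident macrophage genes, 2 were higher unadjusted (median 0.21): the scavenger receptor Msr1 (1.16 ± 0.44, p = 0.021) and the leukotriene synthase Ltc4s (0.92 ± 0.41, p = 0.044). Mmp12 of the next list was well above background on only 22 of the 39 arrays and Lpl on all 39, and which cells gave the Lpl signal was not tested. The list of inflammatory and lipid-associated macrophages had 6 of 15 higher unadjusted and a median of 0.93, with the elastase Mmp12 at 2.25 ± 0.62 (p = 0.0037) and the lipase Lpl at 0.83 ± 0.28 (p = 0.012), beside the 1.96% of all genes that were higher. That count was 6 without Day 6 (2.07% of all genes higher), 4 without Day 14 (1.44%), 6 without Week 3 (1.61%) and 3 of 14 without Week 6 (2.38%), and the count of the resident genes 2, 1, 1 and 1.

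In the doses together against HFC, 2.56% of all genes were higher and 1.94% lower at an unadjusted p under 0.05. Igf1 differed by −0.66 ± 0.26 (p = 0.016) and the chitinase-like Chi3l4 by 1.45 ± 0.70 (p = 0.048) among 17 effectors with a median of −0.22. Of the 16 resident genes Ltc4s differed by −1.07 ± 0.43 (p = 0.022; median −0.17), and of the 15 inflammatory and lipid-associated genes 5 were lower unadjusted (median −0.84), with Lpl at −0.84 ± 0.28 (p = 0.0062) and Gpnmb at −1.30 ± 0.47 (p = 0.011). All of these had an adjusted p of 1.00. Without Week 6, 0 of the effectors, resident genes and inflammatory and lipid-associated genes passed unadjusted, where 1.98% of all genes were higher and 1.76% lower, with list medians of −0.47, −0.45 and −0.81. The last list had 5 lower without Week 12, without the HF75 Week 3 and HF5 Week 12 arrays and without HF20 Week 15, with medians of −0.68, −0.61 and −0.81. The effectors had 0 higher and 1 lower without Week 12 (median −0.02). They had 2 higher and 1 lower without the HF75 Week 3 and HF5 Week 12 arrays or without HF20 Week 15. Relative to the macrophage level, 2 pathway genes passed in HFC against LFC among the 9.54% of all genes that did: Il13 fell by 1.69 ± 0.37 (adjusted p = 0.033) and the lectin Mgl2, a close relative of Clec10a, fell by 1.16 ± 0.35 (adjusted p = 0.047). With Emr1 alone or the general macrophage list as the reference, neither of them passed.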

How the data were processed

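The array files hold spot intensity values in scanner units as deposited, which per the file headers had the background subtracted and spatial trends corrected within the array, with flags (other columns) for each spot. The authors also deposited log2 ratios to LFC within each time point, which were used as an alternative. From the intensities, spots the scanner software marked as outliers were dropped, log2 was taken, the 75th percentile of the array was subtracted and spots of a probe were averaged. A gene was represented by its probe with the highest mean and was tested when well above background on at least 10 of 20 arrays (19876 genes) or 6 of 30 (21092 genes). Differences were two-sided tests in limma 3.58.1 (R 4.3.3). Time points formed a fixed block for diets and a random block for time, with Benjamini-Hochberg adjustment over all genes. Relative differences used the level minus the mean of Cd68 and Emr1. Correlations used 100000 permutations, so that the smallest p is 1e-05, and ran in Python 3.11.15 with numpy 2.4.6 and scipy 1.17.1. The fits were tested on simulated data.

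The 7 members and the lists were chosen with earlier results of these data known, so the lists give no independent support. Named were all members with Cd68 and Emr1 and, of each list, the genes past the adjusted threshold (at most 5) or otherwise the 2 with the smallest unadjusted p, and the 3 genes most like each member. Ccl24 and Cd209d in the comparison over time follow that rule. Cd209g and Cd209f were named after their values were seen. Replicate numbers carry no pairing beyond the time point, which is the block. Spot numbers per probe and array numbers limit the precision; intensities carry no read depth. The 39 arrays lay on 36 slides and were scanned on 14 days, and slide, scan day, normexp background correction, other scalings, array weights, the deposited ratios, plain t-tests and leaving out each time point were tried as alternatives. Leaving out the HF75 Week 3 and HF5 Week 12 arrays or HF20 Week 15, and the list counts without single arrays or time points, were added after seeing the data. Promoters came from RefSeq (GRCm38.p6), with none used here for Lyve1 and Clec10a. A gene of the set and a gene of the lists are not reported here.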

Additional observations from a re-analysis of the deposited data

Results flagged for a closer look

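Within a diet and period, Clec10a on HF75 Week 3 was the lowest of 6 arrays at 1.59, with the nearest at 3.95. The second Lyve1 probe, listed as Xlkd1, was highest on HFC Week 15 at −1.30, with the nearest of the 6 at −2.56. These were 2 of 50 sets examined for an array far from the rest, and chance flags about 1 in 20 such sets. HF75 Week 3 was also the array with the highest skeletal muscle list (7.35), and its part in the Clec10a level was not tested.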

How the results depend on the processing

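With normexp background correction, which moved the median of all genes by 0.35 in HF20 against HFC and called 7908 of 21092 genes there, 2 members passed: Mrc1 (−1.0) and Cd163 (−1.05). Without the HF20 Week 15 array, a choice made after seeing the data, normexp called 7974 genes and 2 members, Cd163 (−0.97) and Timd4 (1.11). In HFC against LFC, 10 time points, relative to the macrophage level, normexp called 1 member, Timd4 (−1.04), among 11463 genes, and array weights 1, Lyve1 (−0.73), among 18712. In KAL-1 doses together against HFC, relative to the macrophage level, normexp called 1 member, Timd4 (1.07), among 9248 genes, or Timd4 (1.11) among 8289 without HF20 Week 15, and array weights called 1, Clec10a (0.74), among 16356. In all other settings of the 13 comparisons the count of members past the threshold was 0, from 0 to 0 when each time point was left out, and 0 with no replicate block, so the time point as a block changed no call.

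Of 2108 member differences under other settings, 102 had the other sign, 24 of them by more than the SE or with a call involved, and the cause was not tested. With normexp, Timd4 was −0.21 in HFC against LFC, 0.84 in HF20, 0.0064 in HF75 and 0.25 in the doses together against HFC and 0.10 per dose step; without HF20 Week 15 as well, Timd4 was 1.11, 0.0064, 0.34 and 0.12. With array weights, Clec10a was 0.33 in HFC against LFC over 10 time points and 0.44 late, the doses together minus LFC were 0.035 for Lyve1, 0.36 for Retnla, 0.31 for Folr2 and 0.38 for Clec10a, Timd4 was 0.013 per week and Retnla 0.017 in the relative HFC against LFC. With the slide as a random block, Retnla in HF20 was 0.10; with the general macrophage list as the reference, Mrc1 and Folr2 in the relative HFC against LFC were 0.039 and 0.044 and the other 5 members lay between −0.41 and −0.018, each higher than with Cd68 and Emr1, and in the relative doses together against HFC the 7 lay between −0.23 and 0.29, each lower. Leaving out each time point, the ranges that crossed 0 in this way were −0.57 to 0.37 for Clec10a in HF75 and −0.26 to 0.051 for it per dose step, −0.069 to 0.066 for Folr2 per week, and −0.39 to 0.42 for Lyve1 in the relative doses together against HFC.

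Some values moved without a call. With the HF5 and HF20 labels of Week 12 exchanged, HF20 minus HFC was −0.56 for Mrc1, −0.75 for Lyve1, −0.62 for Folr2 and −0.13 for Retnla, and without the HF75 Week 3 and HF5 Week 12 arrays the doses together minus HFC were −0.41 for Mrc1 and −0.50 for Lyve1. The correlation with the macrophage level passed for 6 of 7 members with normexp (Timd4, at 0.274 with an adjusted p of 0.28, did not; 5.46% of genes did) and for all 7 with median scaling (15.2% of genes), Cd68 alone (14.9%), Emr1 alone (9.85%) and quantile normalization (16.9%). The slide as a random block could not be fitted for HFC against LFC, its relative form and the late minus early effect. Signal over background limits Timd4, which was well above background on 36 of 39 arrays.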
